A study of Mus musculus with 6 samples.

Results

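Long noncoding RNAs (lncRNAs) of neural development and of the Hox clusters were followed in mouse neural progenitor cells (NPCs) with and without Ybx1. The 7 genes were chosen by name, 5 as neural lncRNAs (Miat, Rmst, Pantr1, Sox2ot and Dlx6os1) and 2 as lncRNAs of the Hox clusters (Hotair and Hotairm1). Of the 51733 genes in the count tables, 6 of these 7 had a row. Rmst had no row under its symbol, so no value is given for it. Of the 6, 5 passed a filter on low values, Dlx6os1 through the controls alone, and Hotair did not.

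RNA was sequenced from NPCs sorted for a Sox2-eGFP reporter from neural tubes of embryos at E13.5, of both sexes. The labels give the strain as C57BL/6, while the reporter line is a B6;129S1 stock in the study's methods. The 3 Ybx1-KO libraries came from embryos homozygous for the germline null allele Ybx1tm1Ley. The 3 control libraries, labelled wildtype, came from embryos that the study describes as siblings. All 6 libraries thus share the reporter and the sort. Ybx1 is an RNA- and DNA-binding protein with a cold-shock domain, and the study asked how its loss changes gene expression in NPCs.

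The libraries held 20841990 to 23883542 counts on genes in the controls and 4743279 to 13321952 in Ybx1-KO. Ybx1 itself stood at 235, 523 and 301 CPM (counts scaled to a common library size) in controls 1 to 3 and at 124, 54.5 and 9.51 CPM in Ybx1-KO 1 to 3, without overlap. Library Ybx1-KO 3 stood apart. In it 7.22% of read pairs were assigned to genes, against 18.0% to 24.7% in the other 5, and 1729 olfactory, vomeronasal and taste receptor genes, which NPCs are not known to use, averaged 0.797 FPKM (fragments scaled by exon length and library size) against 0.00394 to 0.0168. Control 2 stood apart in regional genes, with Fezf2, a factor of forebrain and cortical neurons, at 3.36 CPM against 56.3 and 97.6 in controls 1 and 3.

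LncRNAs are transcripts longer than small RNAs that code for no protein, and many lie beside the genes of developmental transcription factors. Some act on the neighbouring gene, others bind splicing factors or chromatin complexes elsewhere in the nucleus. In the embryonic brain several of them are restricted to one region or to one step between progenitor and neuron, so their levels also follow which cells a sample holds. In bulk RNA, fewer cells of a type and less RNA per cell cannot be told apart.

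Miat, also called Gomafu, stays in the nucleus of neural cells and carries repeats of TACTAAC, the branch point sequence that the splicing factor Sf1 recognises. The repeats are shown because they set Miat apart from the other lncRNAs here by sequence. Its longest transcript, of 9163 bases, held 6 copies, and the longest transcripts of the other 6 genes held 0. Of 3011 lincRNA genes with a transcript of at least 1000 bases in GENCODE M21, 6.08% held the motif on the transcript strand, and 1, Miat itself, held 6 copies or more. The stretch from base 4873 to base 5072 of that transcript holds 3 copies, in capitals.
Miat repeats: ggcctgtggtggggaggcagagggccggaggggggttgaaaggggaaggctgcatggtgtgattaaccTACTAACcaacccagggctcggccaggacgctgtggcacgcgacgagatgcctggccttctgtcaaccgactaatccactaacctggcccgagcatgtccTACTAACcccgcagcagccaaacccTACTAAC

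Dlx6os1, also called Evf2, starts beside the Dlx5 and Dlx6 genes and is known for its part in their regulation in the ventral forebrain. The window around one of its RefSeq starts is shown because Dlx6os1 had the largest difference between the genotypes and because Ybx1 is named for the Y-box, whose core is CCAAT or its complement ATTGG. The window reaches from 250 bases before the start to 50 bases after it (chr6:6869484-6869783 of GRCm38.p6, minus strand) and held 1 CCAAT and 1 ATTGG, in capitals.
Dlx6os1 start window: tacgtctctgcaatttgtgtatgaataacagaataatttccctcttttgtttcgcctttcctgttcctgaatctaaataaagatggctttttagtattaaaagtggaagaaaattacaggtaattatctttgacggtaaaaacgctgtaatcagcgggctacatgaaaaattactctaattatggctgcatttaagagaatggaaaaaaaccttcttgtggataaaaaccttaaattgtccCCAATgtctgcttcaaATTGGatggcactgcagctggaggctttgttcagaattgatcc

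A second RefSeq start of Dlx6os1 and the start of Miat had 0 such matches in windows of the same size. Of all 32851 windows in the RefSeq table, 37.4% held a match on either strand, so the match is a description of these letters and not a site.

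The 7 genes lie at separate loci that differ in their layout (GRCm38, GENCODE M21). Miat lies on chromosome 5 from 112213228 to 112229395, minus strand, and 24.3% of its exon bases are overlapped by exons of Gm26953 on the other strand. Rmst lies on chromosome 10 from 92071037 to 92165170, minus strand. Pantr1, on chromosome 1 from 42590782 to 42694842, starts 926 bases from Pou3f3 and runs away from it on the minus strand. Sox2ot, on chromosome 3 from 34104270 to 34682619, holds Sox2 within its span on the same plus strand. Dlx6os1, on chromosome 6 from 6820189 to 6871592, minus strand, holds Dlx6 within its span on the opposite strand, and a second, short annotated gene carries the same symbol. On chromosome 6 too, Hotairm1 lies from 52156902 to 52162119 on the plus strand, ending shortly before Hoxa2, which is on the other strand. Hotair lies on chromosome 15 from 102944062 to 102947730, minus strand, between Hoxc12 and Hoxc11. The strand setting of the counting is not given in the sources used here, so reads of overlapping genes on opposite strands, such as Miat and Gm26953, may not be fully separated. The level of Hotairm1 carries the same limit.

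Per length, Miat was the most abundant of the 6 in both genotypes. In the controls the mean levels were 31.1 FPKM for Miat, 10.2 for Pantr1, 9.06 for Dlx6os1, 1.74 for Sox2ot, 1.37 for Hotairm1 and 0.196 for Hotair. The ranges over the 3 control libraries overlapped between each pair of neighbours in that order, except between Hotairm1 and Hotair. In Ybx1-KO the order was Miat at 44.2 FPKM, Pantr1 at 21.3, Hotairm1 at 4.34, Sox2ot at 1.68, Dlx6os1 at 0.952 and Hotair at 0.258. Here Dlx6os1 stood below Sox2ot and Hotairm1, and in the controls above both. Neighbours overlapped between Hotairm1 and Sox2ot and between Sox2ot and Dlx6os1, and the other neighbours did not.

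No lncRNA of the list passed the test between the genotypes. With calls set at a Benjamini-Hochberg adjusted p under 0.05 together with a fold change over 1.5, edgeR's quasi-likelihood test called 0 of the 5 tested lncRNA genes and 0 of all 21323 tested genes (0%), with 2393 genes (11.2%) at an unadjusted p below 0.05. Of the 5, 1 (Dlx6os1) was at an unadjusted p below 0.05, in the lower direction, where 4.26% of all genes were. A single lncRNA, Hotairm1, had groups that did not overlap in TMM-normalized CPM, as 13.1% of all genes did. With RLE scaling it was again Hotairm1 alone (13.4% of all genes), and with library totals as the only scaling Dlx6os1 joined it (11.1%). Log2 fold changes were above 0 for 3 of the 5 and below 0 for 2, and the median over all tested genes was 0.31. limma-voom called 0 genes, and DESeq2 called 214 of 16541 (1.29%), among them Dlx6os1.

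**Figure D1:**
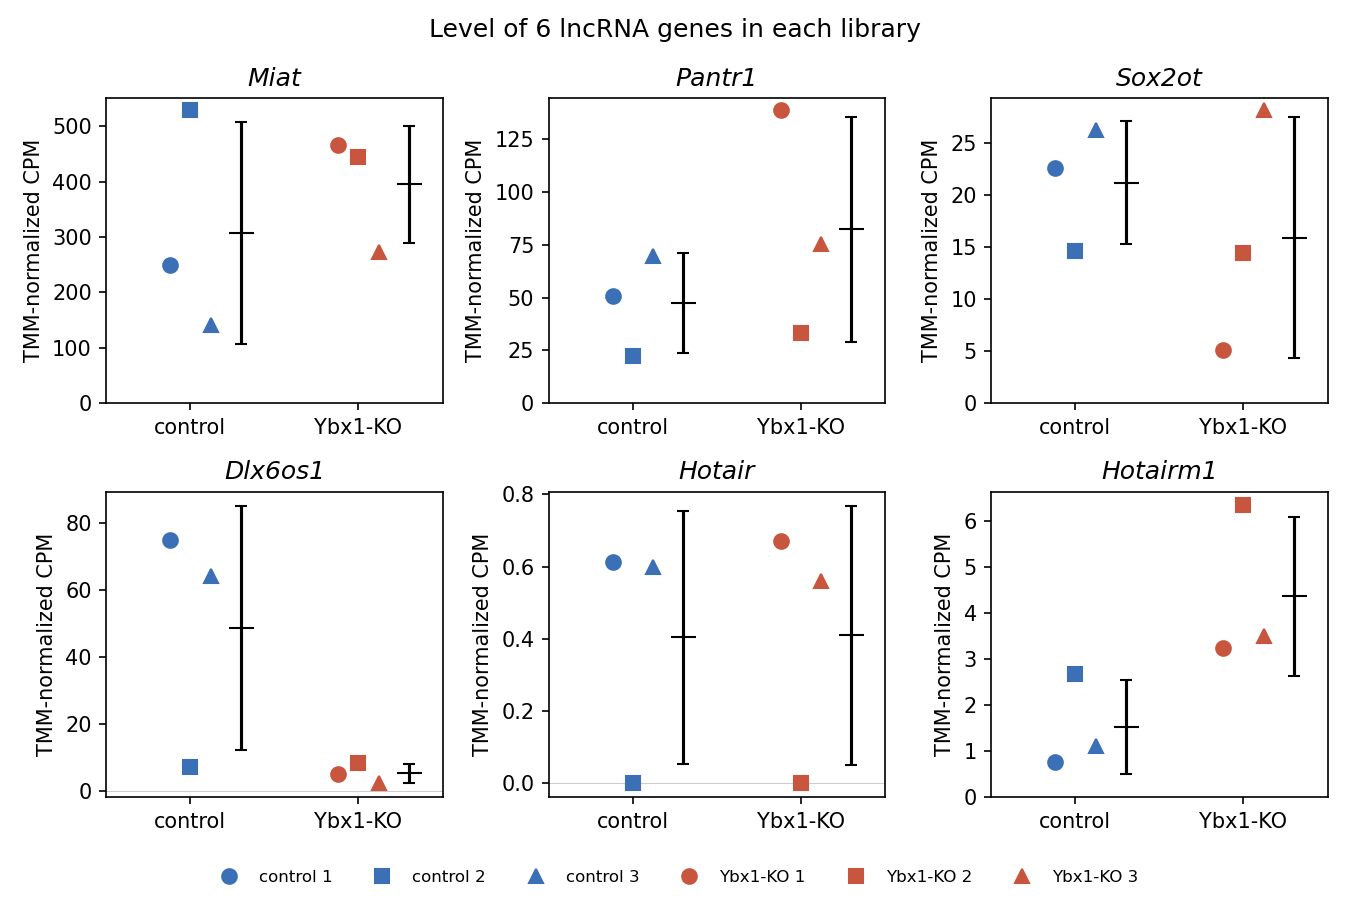
Level in TMM-normalized CPM (vertical axis, linear, one scale per gene) of 6 lncRNA genes in 3 control and 3 Ybx1-KO libraries, one point per library, with the mean and SD of each group in black. For Dlx6os1, control 2 at 6.96 CPM lies among the Ybx1-KO libraries, and for Hotairm1 every Ybx1-KO library lies above every control.

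Dlx6os1 showed the largest difference of the 6. Its counts were 1585, 151 and 1280 in controls 1 to 3 and 45, 80 and 17 in Ybx1-KO 1 to 3. After TMM normalization these were 74.8, 6.96 and 64.0 CPM in the controls and 5.02, 8.18 and 2.38 CPM in Ybx1-KO. Controls 1 and 3 stood far above every Ybx1-KO library, while control 2 lay below Ybx1-KO 2, so the groups overlapped on this scale. With library totals as the only scaling control 2 stood at 6.32 CPM and the Ybx1-KO libraries at 3.58 to 6.01 CPM, so the groups then did not overlap. The TMM-normalized means were 48.6 ± 36.5 CPM and 5.19 ± 2.90 CPM (SD, n = 3 each). The log2 fold change was -3.21 with a standard error of 0.686, at an unadjusted p of 0.000229 and an adjusted p of 0.178 (edgeR, Benjamini-Hochberg). The two-sided exact permutation test gave p = 0.2, where 0.1 is the smallest p that 3 against 3 allows and the value with library totals.

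The log2 fold change of Dlx6os1 and its adjusted p moved with the libraries in the fit. Without control 2 the log2 fold change of Dlx6os1 was -3.72 at an adjusted p of 0.000661 by the same edgeR test, which then called 73 of 21500 genes (0.34%). With the tested genes kept, the fit without control 2 gave -3.73 at an adjusted p of 0.00102 among 71 called genes (0.333%). Leaving out Ybx1-KO 3 gave -2.88 at an adjusted p of 0.27 with the edgeR test. With the tested genes kept, that fit gave -2.92 at an adjusted p of 0.0709 (edgeR), and no call. In Ybx1-KO 3, Dlx6os1 stood at 0.687 FPKM, under the 0.797 FPKM of the receptor genes in that library. The other fits that called it were the edgeR test without Ybx1-KO 1 (-3.22, adjusted p 2.63e-07, 2.87% of all genes called, but adjusted p 0.0666 and no call with the tested genes kept), without Ybx1-KO 2 (-3.75, adjusted p 4.2e-08, 2.98% called, and 1.96% with the tested genes kept), the edgeR test with no filter (-3.27, adjusted p 2.24e-06, 0.451% called) and DESeq2 (-3.18, adjusted p 0.0066). It was not called by limma-voom (-2.71, adjusted p 0.55), nor without control 1 (-2.80, adjusted p 0.509, edgeR) or control 3 (-2.96, adjusted p 0.639, edgeR). Other scalings and stricter filters in edgeR did not call it either. Over 19 alternatives in edgeR, limma-voom or DESeq2 the log2 fold change lay between -3.75 and -2.71 and the adjusted p between 4.2e-08 and 0.639.

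**Figure D2:**
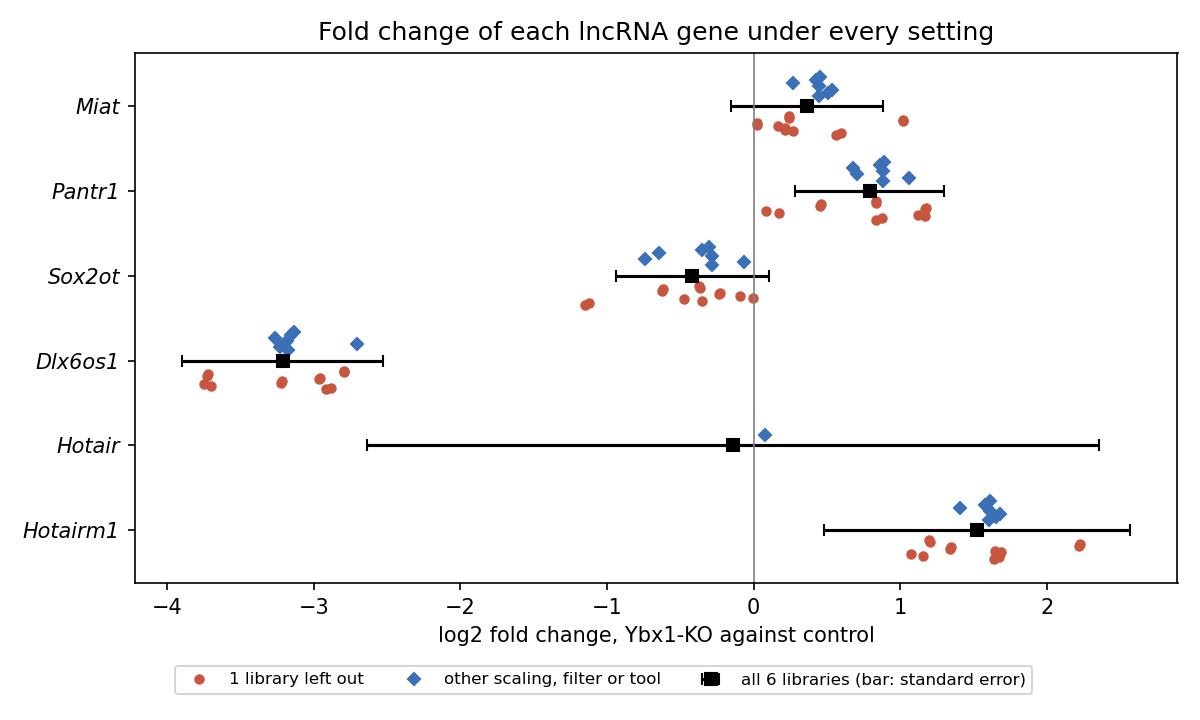
Log2 fold change of Ybx1-KO against control (horizontal axis) for each lncRNA gene, with all 6 libraries as a black square and its standard error, with another scaling, filter or tool as blue diamonds, and with 1 library left out as red circles. Dlx6os1 stays between -3.75 and -2.71, and Miat, Pantr1 and Sox2ot approach 0 under some of these settings. For Hotair the square is the fit with no filter.

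The protein-coding genes at the Dlx6os1 locus had log2 fold changes closer to 0 than Dlx6os1. Dlx6, a homeobox factor of ventral forebrain neurons, stood at 4.72, 0.783 and 5.60 CPM in the controls and at 1.23, 4.29 and 3.64 CPM in Ybx1-KO, for a log2 fold change of -0.28 ± 1.00 (standard error). Dlx5, its homeobox neighbour, stood at 15.0, 4.98 and 34.3 CPM against 2.34, 13.4 and 6.44 CPM, for a log2 fold change of -1.29 (adjusted p 0.45 by edgeR, standard error 0.672). In both genes control 2 was among the low libraries and Ybx1-KO 2 stood above it.

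Within a library, Dlx6os1 relative to Dlx6 did not overlap between the genotypes, control 2 included. The log2 ratio of Dlx6os1 to Dlx6 counts, with 0.5 added to both, was 3.98, 3.11 and 3.51 in the controls and 1.98, 0.92 and -0.60 in Ybx1-KO. All 3 controls were above all 3 Ybx1-KO libraries. The means were 3.53 ± 0.433 and 0.77 ± 1.30 (SD, n = 3 each), a difference of -2.77 with the smallest exact permutation p that the design allows, 0.1 two-sided, and 0.7 after Benjamini-Hochberg adjustment over 7 such ratios. It rests on 11 to 112 counts of Dlx6 in a library, and leaving out any 1 library kept it between -3.37 and -2.08. Relative to Dlx5 the ratios were 2.32, 0.48 and 0.90 in the controls and 1.08, -0.71 and -1.41 in Ybx1-KO, which overlapped (difference -1.58, exact permutation p = 0.3). Leaving out 1 library moved that difference between -2.29, without Ybx1-KO 1, and -1.04, without control 1.

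**Figure D3:**
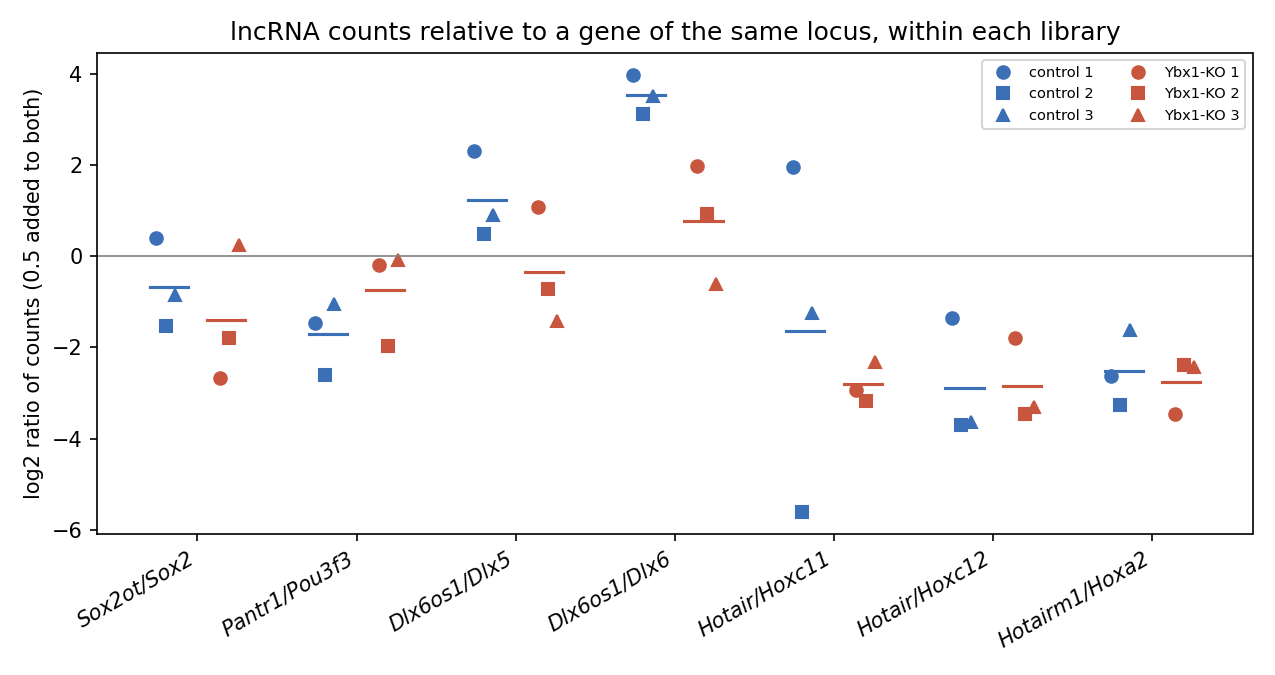
Log2 ratio of the counts of a lncRNA to those of a protein-coding gene of its locus (vertical axis, 0.5 added to both) in each library, with a line at each group's mean. The ratio of Dlx6os1 to Dlx6 is above 3 in all 3 controls and below 2 in all 3 Ybx1-KO libraries, and the groups overlap in the other 6 pairs.

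Dlx1as, Dlx1 and Fezf2, which are known from the telencephalon, were like Dlx6os1 highest in controls 1 and 3. Dlx1as, the antisense transcript at the Dlx1 locus, stood at 19.1, 4.56 and 29.5 CPM in the controls and at 2.23, 8.28 and 4.48 CPM in Ybx1-KO. Its log2 fold change was -1.82 with a standard error of 0.653, at an unadjusted p of 0.013 and an adjusted p of 0.426 by edgeR's test. Fezf2 stood at 6.59, 10.5 and 4.90 CPM in Ybx1-KO, with control 2 below all of them, and Dlx1 had a log2 fold change of -2.21 (adjusted p 0.36, edgeR). Of 9 tested forebrain regional genes 6 had log2 fold changes below 0, 2 of them (Fezf2 and Dlx1) at an unadjusted p below 0.05, and 1 above 0 at that level (Six3, 1.43), with a median of -0.71. That median was -0.03 without control 3, with 4 of 9 above 0, and -1.05 without control 2. The summed level of these 9 genes was 390.1, 154 and 679 CPM in the controls and 317, 263 and 82.7 CPM in Ybx1-KO. The part of regional makeup in the Dlx6os1 difference was not tested.

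The genes most like Dlx6os1 across the 6 libraries, among 10860 protein-coding genes and by Pearson's r of log2 CPM, were Snx22 (0.993), Neurod2 (0.991) and Ttr (0.987). Neurod2 is a factor of cortical excitatory neurons and Ttr, transthyretin, is made by choroid plexus. Ttr stood at 693, 38.0 and 936 CPM in the controls and at 48.1, 55.5 and 19.4 CPM in Ybx1-KO. All 3 were thus highest in controls 1 and 3. With 6 libraries and so many genes such values describe a shared order of the libraries and no more.

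Sox2ot, whose transcription unit overlaps the pluripotency and progenitor factor Sox2, had groups that overlapped widely. Its counts were 479, 318 and 524 in the controls and 46, 141 and 201 in Ybx1-KO, or 22.6, 14.7 and 26.2 CPM against 5.14, 14.4 and 28.1 CPM. Ybx1-KO 1 was the lowest of the 6 libraries and Ybx1-KO 3 the highest, so the groups overlapped. The log2 fold change was -0.42 with a standard error of 0.519, at an adjusted p of 0.713 by edgeR, and p = 0.6 in the exact permutation test. Ybx1-KO 1 and Ybx1-KO 3 set much of this value, in opposite directions. Without Ybx1-KO 1 the log2 fold change was -0.092, and -0.0062 with the tested genes kept (edgeR). Without Ybx1-KO 3 it was -1.12 with a standard error of 0.544 at an adjusted p of 0.4 (edgeR). In Ybx1-KO 3, Sox2ot stood at 3.66 FPKM, above the 0.797 FPKM of the receptor genes in that library. The part of that background in the Sox2ot level was not tested.

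Sox2 stood at 17.2, 42.3 and 47.6 CPM in the controls and at 33.0, 49.8 and 23.8 CPM in Ybx1-KO, with a log2 fold change of -0.01. The cells had been sorted for a Sox2-eGFP reporter, and the part of reporter and sort in the Sox2 level was not tested. The log2 ratio of Sox2ot to Sox2 was 0.40, -1.53 and -0.86 in the controls and -2.67, -1.78 and 0.24 in Ybx1-KO. The 2 values of Ybx1-KO 1 and 2 were below all controls and that of Ybx1-KO 3 was not (difference of the means -0.74, exact permutation p = 0.4). Leaving out 1 library moved the difference between -1.56, without Ybx1-KO 3, and -0.11, without Ybx1-KO 1. The genes most like Sox2ot over the 6 libraries were Nos1, the neuronal nitric oxide synthase (r = 0.986), 5330417C22Rik (0.985) and Gpr108 (0.984).

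Pantr1, which shares its start region with the upper-layer neuron and progenitor factor Pou3f3, had counts of 1073, 488 and 1391 in the controls and of 1243, 323 and 538 in Ybx1-KO. These were 50.7, 22.5 and 69.6 CPM against 139, 33.0 and 75.3 CPM. Library Ybx1-KO 1 was the highest and control 2 the lowest, and Ybx1-KO 2 lay within the control range. The log2 fold change was 0.79 with a standard error of 0.510, at an adjusted p of 0.49 by edgeR, and p = 0.4 in the exact permutation test. Without Ybx1-KO 1 it was 0.083, so that library set most of it, and without Ybx1-KO 2 it was 1.12 at an adjusted p of 0.211 (edgeR).

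Pou3f3 varied less than Pantr1, at 139, 136 and 144 CPM in the controls and 159, 129 and 79.5 CPM in Ybx1-KO. The log2 ratio of Pantr1 to Pou3f3 was -1.45, -2.60 and -1.05 in the controls and -0.19, -1.96 and -0.08 in Ybx1-KO, with a difference of 0.96 and an exact permutation p of 0.3. Leaving out 1 library moved the difference between 0.51, without control 2, and 1.57, without Ybx1-KO 2. Ybx1-KO 1 and 3 were above all controls and Ybx1-KO 2 was not. The genes most like Pantr1 were Sem1, a proteasome subunit (r = 0.994), and Snrpf and Snrpe, core proteins of spliceosomal particles (0.994 and 0.993).

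Miat had counts of 5266, 11504 and 2836 in the controls and of 4182, 4355 and 1952 in Ybx1-KO. In CPM these were 248.7, 530.0 and 141.8 against 466.8, 445.2 and 273.1. The controls spanned a wider range than Ybx1-KO, with control 2 above and controls 1 and 3 below every Ybx1-KO library. The log2 fold change was 0.36 with a standard error of 0.519, at an adjusted p of 0.749 by edgeR, and p = 0.6 in the exact permutation test. Control 2 and control 3 set much of this value, which was 1.02 without the first (adjusted p 0.725, edgeR) and 0.024 without the second (adjusted p 0.988, edgeR). Against the median of 0.31 over all tested genes, Miat thus stood 0.05 higher, and with library totals as the only scaling it stood 0.001 below that median. Counts of Gm26953, the gene on the other strand, were between 17.0% and 29.8% of those of Miat in every library, and both ends of that range were in Ybx1-KO.

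Sf1 and Celf3, splicing regulators known to bind Miat, had log2 fold changes of 0.09 and -0.07. Of the 6 tested genes listed as partners or targets of Miat and Rmst, 2 were above 0 and 4 below, with Dlx1 at an unadjusted p below 0.05. The genes most like Miat over the 6 libraries were Gpatch2 (r = 0.992), Socs4, a suppressor of cytokine signalling (0.989), and Nucks1, a nuclear chromatin protein (0.988). Rmst, a lncRNA that binds Sox2 and acts in neurogenesis, has no value here. Its annotated neighbour Nedd1, a centrosome protein gene whose start lies 557 kb from that of Rmst, had a log2 fold change of -0.20.

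Hotairm1 lies at the start of the HoxA cluster and is known to respond to retinoic acid. Of the 6 listed lncRNAs with a row, it alone had groups that did not overlap in TMM-normalized CPM, as 13.1% of all genes did. Hotairm1 counts were 16, 58 and 22 in the controls and 29, 62 and 25 in Ybx1-KO. In CPM these were 0.756, 2.67 and 1.10 against 3.24, 6.34 and 3.50. Control 2 was the highest control and stood just under Ybx1-KO 1. The means were 1.51 ± 1.02 CPM and 4.36 ± 1.72 CPM (SD, n = 3 each), with a log2 fold change of 1.52, a standard error of 1.04 and, by edgeR, adjusted p = 0.509. The exact permutation test gave 0.1, the smallest p the design allows. Without control 2 the log2 fold change was 2.23 (adjusted p 0.725, edgeR), and without Ybx1-KO 2 it was 1.08 (adjusted p 0.711, edgeR).

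Hoxa2, the neighbouring gene and a factor that patterns the hindbrain, stood at 4.82, 25.9 and 3.45 CPM in the controls and at 36.4, 33.1 and 19.2 CPM in Ybx1-KO (log2 fold change 1.37, standard error 0.612, unadjusted p 0.0387, adjusted p 0.444 by edgeR). Control 2 was the highest control in Hoxa2 too, and there it lay above Ybx1-KO 3 in TMM-normalized CPM but below every Ybx1-KO library with library totals. Relative to Hoxa2 within a library, Hotairm1 differed by -0.25 on the log2 scale (exact permutation p = 0.9). The genes most like Hotairm1 were Pfas, an enzyme of purine synthesis (r = 0.992), Hsd11b2 (0.987) and Sp2 (0.983).

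Hotair, the HoxC lncRNA known for binding chromatin-modifying complexes, was near the limit of detection. It had 13, 0 and 12 counts in the controls and 6, 0 and 4 in Ybx1-KO, or 0.614, 0 and 0.60 CPM against 0.670, 0 and 0.560 CPM. Control 2 and Ybx1-KO 2 were both at 0, where 3 counts would be 0.138 and 0.307 CPM. In the fit with no filter its log2 fold change was -0.14 with a standard error of 2.50, at an adjusted p of 0.989 (edgeR), so no difference was detectable at this depth. In Ybx1-KO 3 it stood at 0.42 FPKM, under the 0.797 FPKM of the receptor genes.

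Its neighbours were also low. Hoxc11, a posterior Hox gene, stood at 0.142, 1.11 and 1.45 CPM in the controls and at 5.47, 0.409 and 3.08 CPM in Ybx1-KO. Hoxc12, on the other side, stood at 1.61, 0.276 and 7.70 CPM against 2.46, 0.511 and 6.16 CPM. Hotair and Hoxc12 were both lowest in control 2 and Ybx1-KO 2. The log2 ratios of Hotair to Hoxc11 and to Hoxc12 differed by -1.17 and 0.04 between the genotypes (exact permutation p = 0.7 and 1). Among protein-coding genes the most like Hotair were Nfu1 (r = 0.988), Cd9 (0.981) and Eci1 (0.976), values that rest on at most 13 counts of Hotair in a library.

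The other lncRNAs of the Hox clusters had log2 fold changes above 0 in all 8 that were tested, of 10 with a row and 14 listed. Of all 21323 tested genes, 13067 were above 0. The 8 ranged from 0.42 for Hoxb5os to 2.90 for Hoxa11os, with a median of 1.02. Of the 8, 0 had groups without overlap in TMM-normalized CPM, against 13.1% of all genes. With RLE scaling 1 did (Hoxaas2, higher in Ybx1-KO), against 13.4% of all genes. With library totals 2 did (Hoxaas2 and Hoxaas3, higher in Ybx1-KO), against 11.1% of all genes. Hoxaas2, at 3.07, 13.4 and 3.05 CPM in the controls and 13.7, 24.3 and 12.6 CPM in Ybx1-KO, was the single one at an unadjusted p below 0.05 (log2 fold change 1.37, standard error 0.602, adjusted p 0.444 by edgeR). At that level, in either direction, were 11.2% of all genes. Hoxa11os rested on 1, 21 and 2 counts against 36, 0 and 32. It passed the filter through Ybx1-KO alone, at a mean of 1.19 FPKM against 0.111 in the controls. Passing in that way favours a log2 fold change above 0. The summed CPM of the 10 genes was 28.9, 199 and 45.6 in the controls and 193, 208 and 112 in Ybx1-KO, so control 2 lay within the Ybx1-KO range. Without control 2 their median log2 fold change was 3.03, and without control 1 it was 0.52, with 7 of 8 above 0. All 8 also stayed above 0 under each other scaling, and 7 of 8 stood above the median of all genes with library totals as the only scaling. Above the median of all genes in the same fit stood 5 of 8 with no filter and 6 of 8 without control 1. Without control 3 it was 6 of 8, and 5 of 8 with the tested genes kept.

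**Figure D4:**
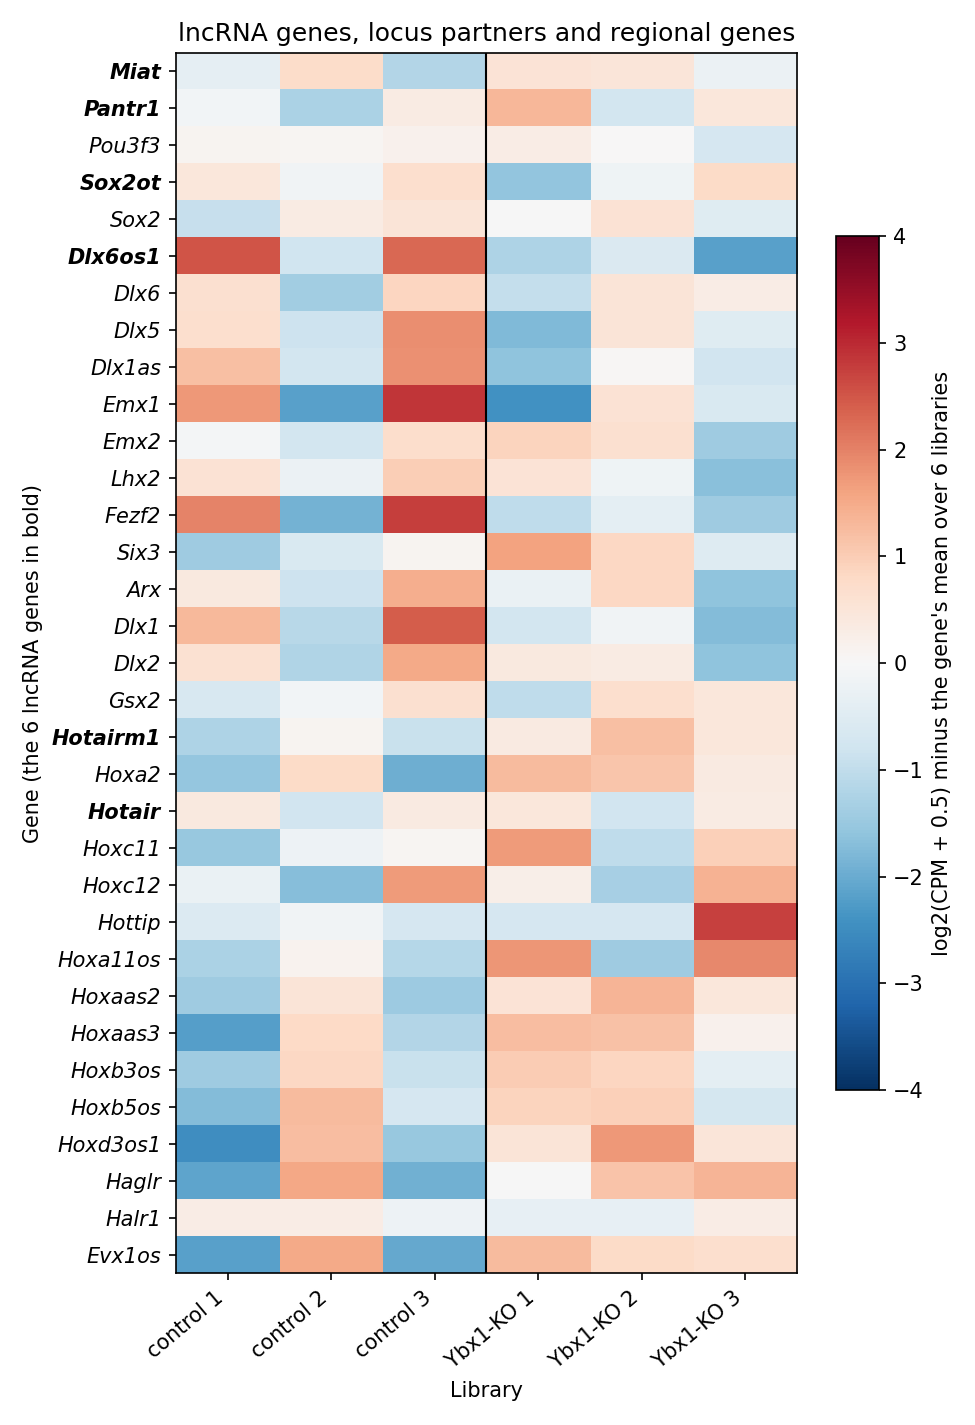
Log2(CPM + 0.5) minus the gene's own mean over the 6 libraries (colour, red above and blue below) for the 6 lncRNA genes in bold, their protein-coding neighbours, Dlx1as, forebrain regional genes and the other Hox cluster lncRNAs with a row. Control 2 is blue for Dlx6os1 and Fezf2 and red for most Hox lncRNAs, like the Ybx1-KO libraries and unlike controls 1 and 3.

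The other neural lncRNAs had no common direction. Of 15 tested, of 19 with a row and 24 listed, 8 had log2 fold changes above 0 and 7 below, with a median of 0.11 that was -0.17 without Ybx1-KO 1. Lhx1os, named for the neighbouring factor Lhx1, stood at 9.92, 21.1 and 13.0 CPM in the controls and at 140, 40.1 and 32.5 CPM in Ybx1-KO, without overlap (log2 fold change 2.27, standard error 0.532, unadjusted p 0.00055, adjusted p 0.235 by edgeR). C130071C03Rik and Meg3 had groups without overlap in the other direction, at -0.81 and -0.75, though both overlapped with library totals as the only scaling. Of all tested genes, 13.1% had groups without overlap in TMM-normalized CPM. Dlx1as and Lhx1os, the lowest and the highest of the 15, were the 2 at an unadjusted p below 0.05 (edgeR), where 11.2% of all genes were.

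Markers of other cell types also varied between these libraries. Of 8 mesenchyme markers, 8 had log2 fold changes below 0 and 5 an unadjusted p below 0.05 (edgeR). Their summed level was 883, 140 and 224 CPM in the controls and 114, 137 and 80.4 CPM in Ybx1-KO, highest in control 1. Dlx6os1 was highest in control 1 too, at 74.8 CPM, with 64.0 CPM in control 3. The summed level of 10 progenitor markers was 1474 to 1681 CPM in the controls and 1104 to 1866 in Ybx1-KO, and that of 12 neuron markers 3333 to 5395 CPM against 1847 to 4563. Those of 7 erythroid markers were 472 to 1151 CPM and 152 to 886 CPM, and those of 8 endothelial and microglial markers 26.0 to 66.5 CPM and 14.7 to 67.2 CPM. At an unadjusted p below 0.05 by edgeR, 3 progenitor markers were higher in Ybx1-KO and 1 lower. Of the neuron markers 1 was higher and 1 lower at that level, and of the erythroid markers 3 were lower. Over all tested genes 11.2% were at that level in either direction. In each of these 5 lists 0 markers were at 0 in all libraries. Their part in the lncRNA differences was not tested.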

How the data were processed

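RNA-seq of total RNA from sorted NPCs was analysed in 6 libraries, 3 control and 3 Ybx1-KO, grouped by the genotype in the sample labels. The authors counted read pairs on genes with HTSeq 0.6.1p1 (per the submitters' processing notes, which also name CASAVA and the mouse builds mm10 and GRCm38.p5) and deposited raw counts per gene symbol, without normalization or pooling. The aligner and the strand setting of that step are not given in the sources used here. The HTSeq tallies of pairs outside genes (30.6% to 59.5% of all) stayed out of library sizes and tests. Nothing in the sources ties each library to its own embryo. Controls 1 and 2 share a number in their titles, as do Ybx1-KO 1 and 2, which may mark a shared litter. No number is shared between the genotypes, so if the numbers mark litters, litter and genotype cannot be told apart. All 6 libraries were treated as independent. The p-values and SDs thus measure the spread between these libraries, which may be partly technical.

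Counts were normalized by TMM in edgeR 4.0.16 (R 4.3.3). Genes whose FPKM averaged over 1 in the controls or in Ybx1-KO were tested with the quasi-likelihood test of edgeR and Benjamini-Hochberg adjustment, and called where the adjusted p was under 0.05 with a fold change over 1.5. CPM uses the TMM-scaled library size, and FPKM uses totals on genes and GENCODE M21 exon lengths (of 51733 symbols, 47624 matched, 356 more by an older symbol, 3753 not). A row named RMST_1 matched no annotated gene and was not used for Rmst. Total counts were 4743279 to 23883542, and 3 counts, taken as the detection floor, were 0.126 to 0.632 CPM of raw totals. Such floors cover counting error only.

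Exact permutation tests used scipy 1.17.1. Locus ratios were adjusted over the 7 that are reported, and Rmst gave none. Some list genes are not reported and enter no list count or sum. Figures used matplotlib 3.10.9 in Python 3.11.15. Alternatives were limma-voom (limma 3.58.1), DESeq2 1.42.0, other scalings and filters, 1 in place of 0.5 in the ratios, and leaving out each library. The fits were tested on simulated data. Named genes were the listed lncRNAs, their locus neighbours, the lowest, highest and unadjusted p below 0.05 of the other lncRNA lists, list sums, and the 3 protein-coding genes most like each lncRNA (mean CPM of at least 5). Fezf2, Six3, Hoxaas3, C130071C03Rik and Meg3 were named after their values were seen. The genes and lists were chosen with earlier results of these data known. Promoter windows are from RefSeq (GRCm38.p6), where 2 of the 7 genes matched, and transcripts from GENCODE M21.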

Additional observations from a re-analysis of the deposited data

How the results depend on the processing

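The number of called genes, 0 of all tested, became 214 with DESeq2 and 193 with no filter, and it lay between 0 and 725 when 1 library was left out. Of the lncRNA genes 1, Dlx6os1, was called with DESeq2 (-3.18) and with no filter (-3.27). When 1 library was left out, 0 to 1 were called and the log2 fold change of Dlx6os1 lay between -3.75 and -2.79. Genes at an unadjusted p below 0.05 then numbered 1031 to 4067 over all genes and 1 to 2 among the lncRNAs. Hotair had a log2 fold change of 0.076 with edgeR's filterByExpr, the opposite sign to that with no filter. With 1 library left out, the difference in log2 ratio spanned 0 for Hotair to Hoxc11 (-3.16 to 0.62), Hotair to Hoxc12 (-0.49 to 0.81) and Hotairm1 to Hoxa2 (-0.63 to 0.19). The cause was not tested. Miat, Pantr1, Sox2ot and Hotairm1 kept their sign and were not called under any of their 19 alternatives, at adjusted p of at least 0.188 (edgeR, limma-voom or DESeq2). The median log2 fold change of all tested genes, 0.31, moved to 0.51 with library totals, 0.15 with limma-voom, 0.70 with no filter, 0.08 with filterByExpr, 0.075 with the CPM filter and 0.013 without Ybx1-KO 3. No paired analysis was possible because the numbers in the sample titles are not shared between the genotypes. Depth limits Hotair and Hotairm1, with at most 13 and 62 counts in a library.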
